A study of Mus musculus with 18 samples.

Results

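The 9 genes described here, Pde3a, Pde3b, Pde4a, Pde4b, Pde4d, Pde7a, Pde7b, Pde8a and Pde10a, encode cyclic nucleotide phosphodiesterases, the enzymes that hydrolyse cAMP, cGMP or both, depending on the family. They were chosen by symbol from the 20295 genes of the count table, as enzymes that act as negative feedback on cAMP, and all 9 were among the 12156 genes that passed the filter on low counts. RNA-seq had been performed on BAT-LgT cells, a single line of mouse brown preadipocytes (genotype WT) that carries the SV40 large T antigen and was differentiated into brown adipocytes. The 18 libraries fell into 6 groups of 3, harvested on day 7 after 3 h with a stimulus. Cells of the Vehicle group received DMSO, those of the ISO group 100 nM isoproterenol, an agonist of all β-adrenergic receptors, and those of the SR-3420 group 10 µM SR-3420 as the sample labels give it. SR-3420 is a ligand of ABHD5, the protein that activates the lipase ATGL once it leaves perilipin. The methods of the study give another dose of SR-3420 than the labels, which was not resolved. In the other 3 groups, named Lipase Inh. plus the stimulus, the same additions followed 1 h with inhibitors of the lipases ATGL and HSL. All groups, controls included, had been differentiated in a medium that contained 3-isobutyl-1-methylxanthine, a broad inhibitor of phosphodiesterases, until day 2, so every sample had met such an inhibitor some days before harvest. The samples of a group come from separate experiments on 1 line, and p-values measure the spread between them. The main fit did not pair samples of different groups by replicate number.

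In brown adipocytes, β-adrenergic receptors activate adenylyl cyclase, and the cAMP formed activates protein kinase A (PKA), which phosphorylates perilipin and HSL to start lipolysis and, in the nucleus, CREB family factors that bind the cAMP response element. Phosphodiesterases end the signal by degrading cAMP, and several of their genes are themselves known targets of the pathway they close. PDE3B, a membrane-bound enzyme that insulin signalling activates, is known as the main route by which insulin lowers cAMP in fat cells. The PDE4 enzymes degrade cAMP selectively and are held by anchoring proteins near PKA.

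Total counts ran from 10310447 to 21205032 in 17 libraries. The second library of Lipase Inh. + SR-3420 held 4263755 counts, of which 18.3% fell on Lars2, against 0.0397% to 0.121% in the other libraries, so calls that rest on that group are also given without it. Brown adipocyte markers summed to between 7761 and 13619 CPM (counts per 1000000 after TMM scaling) over all libraries, and 7 preadipocyte markers summed to between 68.6 and 120.1 CPM. The preadipocyte sum was highest with SR-3420, at 106.5 to 120.1 CPM against 76.1 to 103.8 in Vehicle. The 11 adipocyte markers summed to 9141 to 10033 CPM in Vehicle, 12481 to 13619 with ISO and 10235 to 10684 with SR-3420. After inhibitors they summed to 7761 to 8805 CPM with vehicle, 10317 to 10657 with ISO and 9247 to 9996 with SR-3420. Of the 10 of them that were tested, 6 rose and 0 fell with ISO, and 6 rose and 2 fell (Pparg and Adipoq) with SR-3420. Of the 7 preadipocyte markers, 2 rose and 0 fell with SR-3420. Among all tested genes, 26.8% rose and 25% fell with ISO, and 26% and 25.4% with SR-3420. The part of these markers in the results on phosphodiesterases was not tested. Fewer cells expressing a gene and less RNA per cell cannot be told apart in these bulk samples.

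The levels of the 9 genes ranged widely, as the plot of CPM by sample shows. Per kb of counted length, the scale on which genes can be compared, Pde3b led in Vehicle with 109 ± 2.59 CPM per kb (SD, n = 3), followed by Pde7a with 8.95 ± 1.16 and Pde4b with 8.51 ± 0.744. Pde7a and Pde4b did not differ beyond their spread. Pde8a stood at 5.87 ± 1.15, Pde4d at 4.41 ± 0.459 and Pde4a at 3.66 ± 0.169 CPM per kb. The lowest were Pde7b with 0.328 ± 0.0352, Pde3a with 0.122 ± 0.059 and Pde10a with 0.113 ± 0.0838 CPM per kb, of which the last 2 did not differ beyond their spread. Of these, Pde3a reached the cutoff of the filter, 0.793 CPM, in 6 of 18 libraries, Pde10a in 14 and Pde7b in 17. The other 6 genes reached it in all 18.

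**Figure D1:**
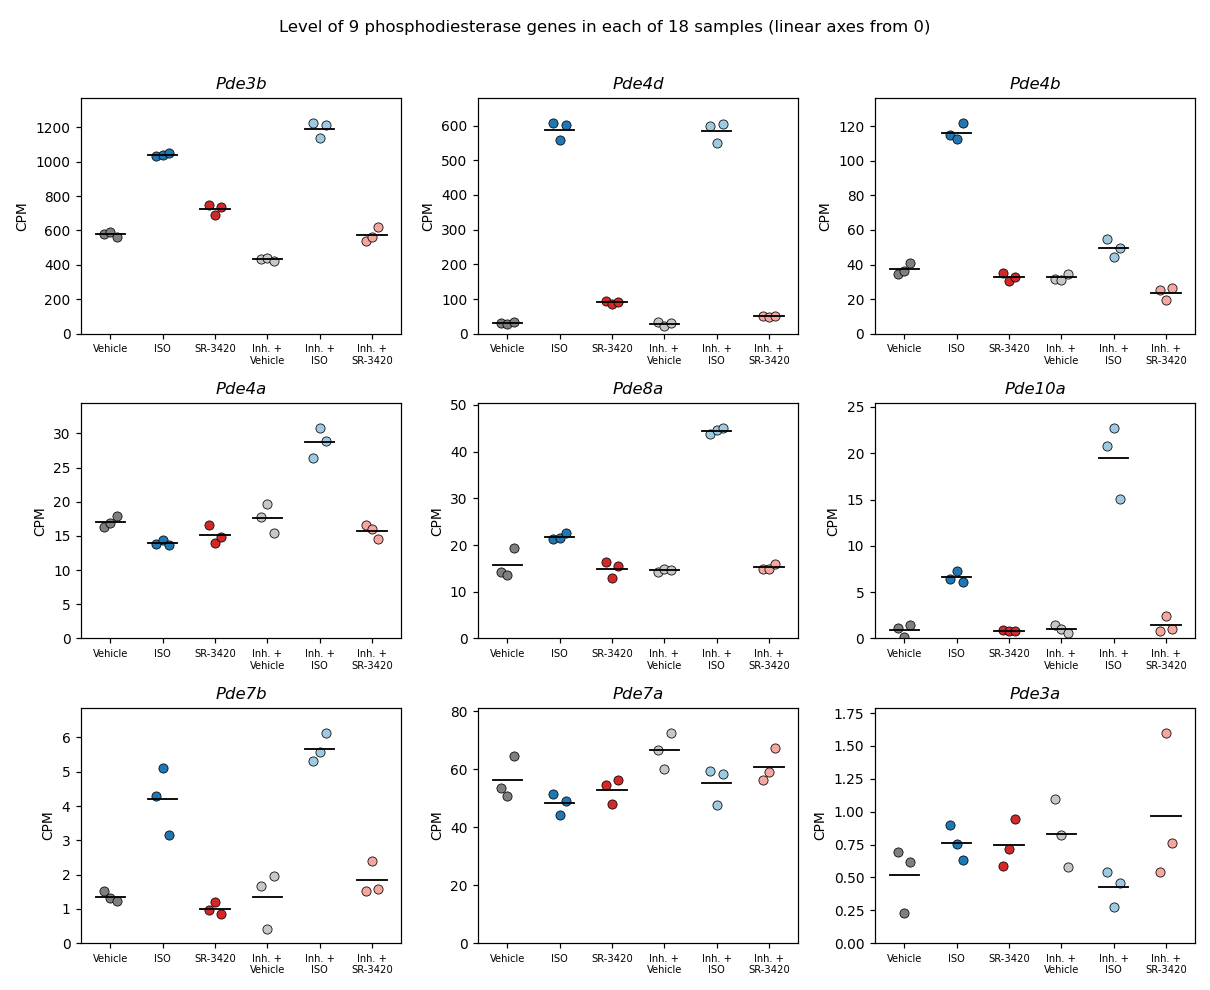
Each panel plots the level of 1 gene in CPM on a linear axis from 0, with 1 point per sample and a line at the mean of the 3 samples of each group (Inh. stands for lipase inhibitors). Pde4d goes from 31.1 to 588 CPM with ISO alone and from 28.9 to 584 CPM after inhibitors, Pde4b peaks with ISO alone, and Pde8a, Pde4a and Pde10a peak with ISO after lipase inhibitors.

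With ISO alone, 6 of the 9 genes rose (Pde4d, Pde10a, Pde4b, Pde7b, Pde3b and Pde8a) and 1 fell (Pde4a), at an adjusted p of at most 0.05 in edgeR's quasi-likelihood test, where 26.8% of all tested genes were higher and 25% lower. A rise of at least 2-fold was found in 4 of the 9, where 5.03% of all tested genes had one. With ISO after lipase inhibitors, 7 rose, 5 of them at least 2-fold, and 1 fell, against 29.4%, 5.43% and 28.3% of all genes. With SR-3420 alone, 2 rose (Pde4d and Pde3b), 1 of them at least 2-fold, and 0 fell (0 also at an unadjusted p of 0.05 and in DESeq2), against 26%, 3.97% and 25.4%. With total counts alone 1 rose (Pde4d), Pde3b no longer passed, and 2 were lower, Pde4a (-0.33, adjusted p = 0.0206) and Pde4b (-0.33, adjusted p = 0.0195). With SR-3420 after inhibitors, 2 rose (Pde4d and Pde3b) and 1 fell (Pde4b), where 2.99% and 1.36% of all genes did. The inhibitors by themselves lowered Pde3b and left the other 8 without a call, with log2 changes from -0.19 for Pde4b to 0.64 for Pde3a, where 0.485% of all genes were higher and 0.428% lower. The median log2 fold change of the 9 was 0.85 with ISO and 1.46 with ISO after inhibitors, beside medians of -0.02 and -0.01 over all genes. The 6 other phosphodiesterase genes that were tested had medians of -0.29 and -0.23. The 9 genes were chosen with earlier results of these data known, so these counts and medians only describe them. ISO and SR-3420 were compared with the same 3 Vehicle samples, and the corresponding groups after inhibitors with the same 3 Lipase Inh. + Vehicle samples.

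With total counts alone in place of TMM, the share of calls that were higher fell from 51.7% to 19.9% for ISO, from 50.6% to 30.8% for SR-3420, from 53.2% to 42% for the inhibitors, from 51% to 27.8% for ISO after inhibitors and from 68.8% to 33.1% for SR-3420 after inhibitors. The median of all genes then shifted by -0.31, -0.16, -0.02, -0.23 and -0.1 on the log2 scale in these comparisons. Members whose call depends on that choice are given with both values.

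**Figure D2:**
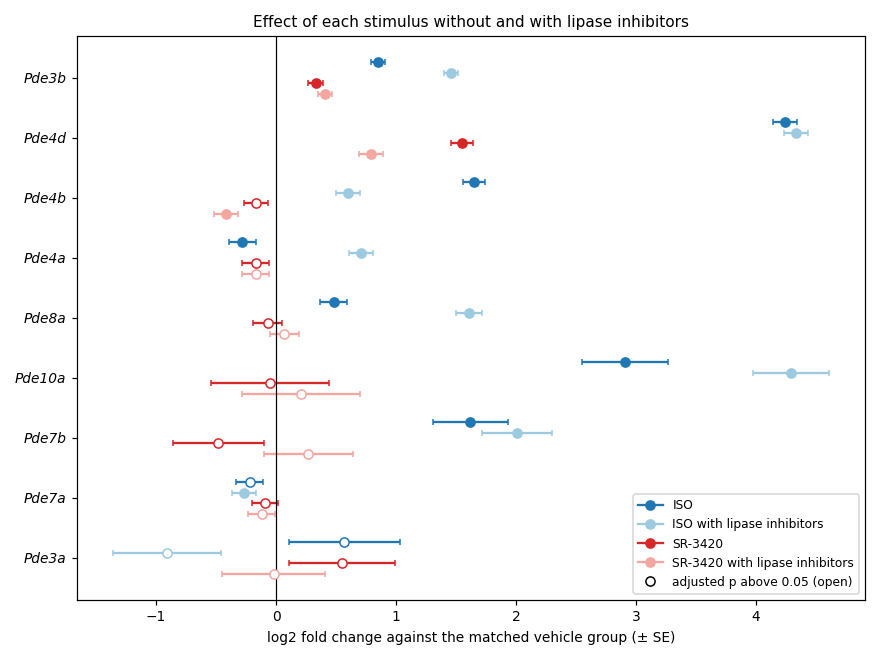
Points give the log2 fold change of each gene against the vehicle group with the same inhibitor treatment, with bars of 1 SE, for ISO (blue) and SR-3420 (red) without (dark) and with (light) lipase inhibitors; open points did not pass an adjusted p of 0.05. Pde4d has the largest shift with ISO alone, 4.24, and the only shift above 1 with SR-3420, 1.55.

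PDE3B was the most abundant member in every group. Its gene (NM_011055, mm9 chr7:121558768-121681451, plus strand, 5286 bases counted) stood at 579.9, 588.6 and 561.8 CPM in Vehicle and at 1033, 1037 and 1050.5 CPM with ISO. After lipase inhibitors it read 433.5, 441.7 and 421.5 CPM with vehicle and 1222, 1139 and 1212 CPM with ISO. The samples of these 4 groups did not overlap, with the inhibitor-treated vehicle group lowest and the inhibitor-treated ISO group highest. Pde3b thus rose with ISO by 0.85 ± 0.06 on the log2 scale (SE, 1.8-fold, adjusted p = 1.6e-10) and by 1.46 ± 0.06 after inhibitors (2.76-fold, adjusted p = 1.81e-14). The effect of ISO was larger after inhibitors by 0.61 ± 0.09 (adjusted p = 9.6e-06). Inhibitors alone lowered Pde3b by a log2 change of -0.42 ± 0.06 (1.33-fold lower, adjusted p = 0.000447), and it was the single member called.

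SR-3420 moved Pde3b less. The samples read 750.4, 692.3 and 736.3 CPM with SR-3420 alone and 538.9, 561.2 and 623 CPM after inhibitors, above their vehicle groups in both settings without overlap. The log2 fold change was 0.33 ± 0.06 without inhibitors (adjusted p = 9.95e-05) and 0.41 ± 0.06 with them (adjusted p = 0.000212), and 0.43 in the latter without the shallow library (adjusted p = 0.000877). With total counts alone they became 0.17 (adjusted p = 0.0932) and 0.30 (adjusted p = 0.0582), so neither call was kept with that scaling. For the second, total counts include the 18.3% that fell on Lars2 in the shallow library. The part of that library in the loss of the call was not tested. The inhibitor difference of the SR-3420 effect was 0.08 ± 0.09 (adjusted p = 0.534). Pde3b reached 4.52 counts per counted base in its deepest library, more than any other member, and the authors' counting kept only 1 read per position and length; how far this lowers its highest values was not tested.

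Pde3a, the PDE3 gene known from heart and vessel muscle (NM_018779, mm9 chr6:141197790-141447872, plus strand), was near the limit of detection. It had 3 to 18 counts per library, and its group means lay between 0.424 CPM with Lipase Inh. + ISO and 0.968 CPM with Lipase Inh. + SR-3420. It passed edgeR's test in 0 of the 8 comparisons. DESeq2 called it in 0 of them too, and only the difference between the effects of ISO with and without inhibitors had an unadjusted p below the threshold in edgeR (-1.48 ± 0.64, adjusted p = 0.0857). With ISO after inhibitors its log2 fold change was -0.91 ± 0.45 (adjusted p = 0.0903), and -1.14 with total counts alone (adjusted p = 0.0347).

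Without inhibitors, Pde4d was the member with the largest change with ISO. After them its change and that of Pde10a, 4.33 ± 0.10 and 4.29 ± 0.32, lay within their errors. The gene (NM_011056, mm9 chr13:109444371-110746177, plus strand, 7049 bases counted of a span of 1301807) read 29.5, 29.1 and 34.8 CPM in Vehicle and 605.8, 558 and 600.6 CPM with ISO. After lipase inhibitors it read 32.5, 23.3 and 30.9 CPM with vehicle and 598.5, 549.1 and 603.5 CPM with ISO. The ISO groups with and without inhibitors overlapped each other, and both lay far above every other group. The log2 fold change with ISO was 4.24 ± 0.10 (18.9-fold, adjusted p = 9.94e-19) without and 4.33 ± 0.10 (20.1-fold, adjusted p = 9.57e-19) with inhibitors. The difference between them was 0.09 ± 0.13 (adjusted p = 0.659), so no effect of the inhibitors on the response to ISO was detected. Inhibitors alone gave -0.10 ± 0.10 (adjusted p = 0.762).

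Pde4d was also the member with the largest response to SR-3420 that passed the test. Its samples read 95.1, 85.8 and 91.3 CPM with SR-3420 and 51.6, 48.2 and 50.3 CPM with SR-3420 after inhibitors. Both groups lay above their vehicle samples, and the group without inhibitors above the one with them. The log2 fold change was 1.55 ± 0.09 (2.92-fold, adjusted p = 2.01e-11) without and 0.79 ± 0.10 (1.73-fold, adjusted p = 3.23e-05) with inhibitors. Without the shallow library the latter was 0.81 (adjusted p = 0.000145). The effect of SR-3420 was thereby smaller after inhibitors, by a difference of -0.76 ± 0.14 (adjusted p = 0.000279), and without the shallow library that difference was -0.74 (adjusted p = 0.000844). It was the only one of the 9 genes to pass this test, where 12.5% of all genes had a higher and 14.8% a lower effect after inhibitors. ISO stood above SR-3420 by 2.70 ± 0.09 (6.48-fold, adjusted p = 1.95e-15).

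Pde4b (NM_019840, mm9 chr4:101927544-102279867, plus strand, 4371 bases counted), the PDE4 gene best known for its part in inflammatory cells, answered ISO in another way. It read 34.4, 36.5 and 40.8 CPM in Vehicle and 114.8, 112.5 and 121.5 CPM with ISO. After inhibitors it read 31.9, 31.0 and 34.7 CPM with vehicle and 54.7, 44.3 and 49.5 CPM with ISO. Every sample with ISO lay above its vehicle group in both settings, and every Lipase Inh. + ISO sample lay below every ISO sample. Pde4b rose by 1.65 ± 0.09 (3.13-fold, adjusted p = 4.08e-12) with ISO and by 0.60 ± 0.10 (1.52-fold, adjusted p = 1.31e-05) with ISO after inhibitors. The difference of these effects was -1.04 ± 0.13 (adjusted p = 2.86e-06), and Pde4b was the only one of the 9 genes whose response to ISO was smaller after inhibitors at the threshold.

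No rise of Pde4b with SR-3420 was seen. The samples read 35.1, 30.7 and 32.9 CPM with SR-3420, overlapping Vehicle, and the log2 fold change was -0.17 ± 0.10 (adjusted p = 0.142), or -0.33 with total counts alone (adjusted p = 0.0195). After inhibitors SR-3420 gave 25.3, 19.5 and 26.2 CPM, below the vehicle group, with a log2 fold change of -0.42 ± 0.10 (adjusted p = 0.0221). That call was lost without the shallow library, whose level was the lowest (-0.34, adjusted p = 0.0861), without Lipase Inh. + Vehicle replicate 1 (-0.43, adjusted p = 0.0559) or replicate 3 (-0.36, adjusted p = 0.0944), and with only those groups in the fit (-0.43, adjusted p = 0.0664). ISO stood above SR-3420 by 1.82 ± 0.09 (3.53-fold, adjusted p = 3.54e-12).

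Pde4a (NM_183408, mm9 chr9:20970158-21017692, plus strand, 4653 bases counted), another cAMP-selective PDE4 gene, turned in opposite directions with and without inhibitors. It read 16.4, 16.9 and 17.9 CPM in Vehicle and 13.9, 14.4 and 13.7 CPM with ISO. After inhibitors it read 17.7, 19.6 and 15.5 CPM with vehicle and 26.5, 30.8 and 28.8 CPM with ISO. All ISO samples lay below Vehicle without inhibitors, and all Lipase Inh. + ISO samples lay above every other sample of this gene. The log2 fold change was -0.28 ± 0.11 (adjusted p = 0.0342) without inhibitors and 0.71 ± 0.10 (1.64-fold, adjusted p = 3.78e-06) with them, a difference of 0.99 ± 0.15 (adjusted p = 2.31e-05). The fall without inhibitors is marginal: it was lost in DESeq2 (adjusted p = 0.051), without the filter on low counts (0.0668), with only those groups in the fit (0.0529) and when any of 5 single samples was left out (up to 0.0935), namely Vehicle replicates 2 and 3 and ISO replicates 1, 2 and 3. SR-3420 gave -0.17 ± 0.11 in both settings (adjusted p = 0.182 and 0.511), and -0.33 without inhibitors with total counts alone (adjusted p = 0.0206). Pde4c, the remaining PDE4 gene and not one of the 9, had at most 4 counts in any library.

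Pde8a (NM_008803, mm9 chr7:88358690-88478508, plus strand, 2683 bases counted) encodes a cAMP-specific enzyme with high affinity that 3-isobutyl-1-methylxanthine does not inhibit. It read 14.3, 13.7 and 19.3 CPM in Vehicle, 21.3, 21.6 and 22.6 CPM with ISO, and 43.8, 44.7 and 45.0 CPM with ISO after inhibitors, where the vehicle group read 14.2, 14.9 and 14.6 CPM. The 3 Lipase Inh. + ISO samples were the highest and the ISO samples the next highest, each without overlap with its vehicle group. Pde8a rose by 0.48 ± 0.11 (1.39-fold, adjusted p = 0.00137) with ISO, a call that total counts alone did not give (0.17, adjusted p = 0.239), and by 1.61 ± 0.11 (3.05-fold, adjusted p = 4.65e-11) after inhibitors. The difference was 1.13 ± 0.16 (adjusted p = 9.09e-06). With SR-3420 the log2 fold changes were -0.07 ± 0.12 and 0.07 ± 0.12 without and with inhibitors (adjusted p = 0.658 and 0.836).

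Pde10a (NM_001290707, mm9 chr17:8719666-9179513, plus strand, 7763 bases counted), an enzyme that degrades both cAMP and cGMP and is best known from the striatum, was near the limit of detection in the vehicle groups. The Vehicle samples held 17, 2 and 16 counts and the ISO samples 93, 87 and 58, that is 1.07, 0.155 and 1.41 CPM against 6.45, 7.30 and 6.09 CPM. After inhibitors the vehicle samples read 1.46, 0.989 and 0.578 CPM and the ISO samples 20.8, 22.7 and 15.1 CPM. Neither pair of groups overlapped, and the Lipase Inh. + ISO samples lay above the ISO samples. Pde10a rose by 2.91 ± 0.36 (7.52-fold, adjusted p = 5.95e-07) with ISO and by 4.29 ± 0.32 (19.6-fold, adjusted p = 1.72e-10) after inhibitors. The difference, 1.38 ± 0.55, did not pass (adjusted p = 0.0603) but did with DESeq2 (1.38, adjusted p = 0.0189), with total counts alone (1.46, 0.0361) and without the filter (1.39, 0.0227). In edgeR with the replicate numbers as a block it passed too (1.37, adjusted p = 0.038). It also passed without Vehicle replicate 2, which had the 2 counts (1.86, adjusted p = 0.00482), without Lipase Inh. + Vehicle replicate 1 (1.76, 0.0332) or without Lipase Inh. + ISO replicate 3 (1.55, 0.0385). SR-3420 gave -0.05 ± 0.49 and 0.21 ± 0.49 (adjusted p = 0.937 and 0.883), with errors too wide to show a small change at this depth. The second value was -0.07 without the shallow library (adjusted p = 0.967).

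The PDE7 enzymes degrade cAMP selectively, and their 2 genes differed here. Pde7b (NM_013875, mm9 chr10:20117810-20444874, minus strand, 4127 bases counted) read 1.52, 1.31 and 1.24 CPM in Vehicle and 4.302, 5.12 and 3.15 CPM with ISO. After inhibitors it read 1.68, 0.412 and 1.97 CPM with vehicle and 5.31, 5.58 and 6.13 CPM with ISO, so that all 6 samples with ISO stood above all others. It rose by 1.62 ± 0.31 (3.08-fold, adjusted p = 0.000163) and by 2.01 ± 0.29 (4.03-fold, adjusted p = 4.83e-06), with a difference of 0.39 ± 0.44 (adjusted p = 0.547). With SR-3420 its log2 fold change was -0.48 ± 0.38 (adjusted p = 0.304), and 0.27 ± 0.37 after inhibitors (adjusted p = 0.784), or 0.15 without the shallow library (adjusted p = 0.901).

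Pde7a (NM_001122759, mm9 chr3:19123109-19211322, minus strand, 6297 bases counted) passed as higher in no comparison. It read 53.5, 50.9 and 64.7 CPM in Vehicle and 51.6, 44.2 and 49.0 CPM with ISO, and the groups overlapped (log2 fold change -0.22 ± 0.11, adjusted p = 0.092). Against a median shift of -0.31 over all genes, total counts alone gave -0.53 (adjusted p = 0.00043), and the value without Vehicle replicate 2 was -0.29 (adjusted p = 0.0486). In edgeR with the replicate numbers as a block the value was -0.21 (adjusted p = 0.0185). After inhibitors it read 66.8, 60.2 and 72.5 CPM with vehicle and 59.5, 47.7 and 58.3 CPM with ISO, a fall of -0.27 ± 0.10 (adjusted p = 0.0329). That call was lost without Lipase Inh. + ISO replicate 2 (-0.18, adjusted p = 0.181), Lipase Inh. + Vehicle replicate 3 (-0.20, 0.153) or Lipase Inh. + Vehicle replicate 1 (-0.26, 0.0699). The difference between the effects of ISO in the 2 settings was -0.05 ± 0.15 (adjusted p = 0.839). Inhibitors alone gave 0.24 ± 0.10, with overlapping groups (unadjusted p = 0.0298 in edgeR, adjusted p = 0.373). SR-3420 gave -0.09 ± 0.11 without and -0.12 ± 0.11 with inhibitors (adjusted p = 0.519 and 0.641), which differed by -0.04 ± 0.15 (adjusted p = 0.895).

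The tests of the difference between the effects with and without inhibitors divide the 9 genes. For ISO, 3 genes had a larger effect after inhibitors (Pde8a, Pde4a and Pde3b) and 1 a smaller one (Pde4b), where 14.9% of all genes were larger and 16.6% smaller, and 5 did not pass. Among those 5 was Pde10a, which passed as larger in some of the other fits. For Pde3b part of the difference lay in the vehicle groups, which read 577 CPM without and 432 CPM with inhibitors. Its ISO groups read 1040 and 1191 CPM. Pde8a, Pde4a and Pde4b had no call for inhibitors alone. With total counts alone the share of larger effects among all calls went from 47.3% to 58.6%; the 4 calls on these genes stood. ISO was directly above SR-3420 for 6 of the 9 genes (Pde4d, Pde4b, Pde10a, Pde7b, Pde3b and Pde8a) and below it for 0, where 15.8% of all genes were higher and 13.9% lower; with total counts alone, the share of higher calls there went from 53.1% to 20.3%. The differences were 2.96 ± 0.35 for Pde10a (adjusted p = 1.81e-06) and 2.10 ± 0.32 for Pde7b (adjusted p = 4.61e-05). They were smaller for Pde3b, 0.52 ± 0.06 (adjusted p = 1.43e-06), and Pde8a, 0.54 ± 0.11 (adjusted p = 0.00106).

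**Figure D3:**
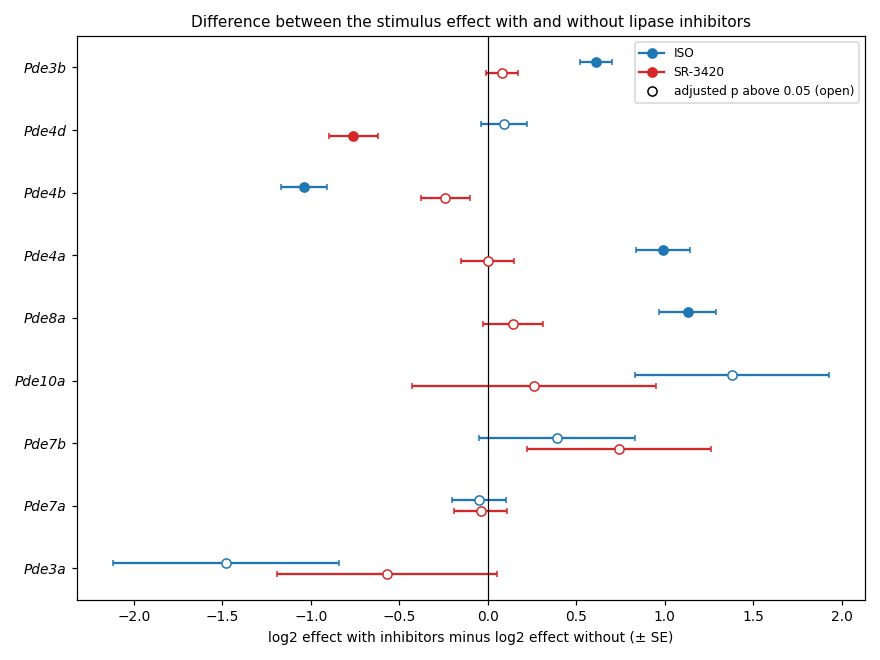
Points give the log2 effect of ISO (blue) or SR-3420 (red) after lipase inhibitors minus the effect without them, with bars of 1 SE; filled points passed an adjusted p of 0.05. Pde8a, Pde4a and Pde3b lie right of 0 for ISO, Pde4b lies left at -1.04, and Pde4d lies left for SR-3420 at -0.76.

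Summed per kb over all 21 phosphodiesterase genes of the table, the level was 164, 166 and 172 CPM per kb in Vehicle and 353, 346 and 358 with ISO. It was 207, 188 and 201 with SR-3420. After inhibitors the sums were 139, 137 and 140 with vehicle, 389, 362 and 387 with ISO and 159, 165 and 180 with SR-3420. The 2 ISO groups lay above all others, and the inhibitor-treated vehicle group was the lowest. Without Pde3b the other 20 genes summed to 58.3 ± 6.51 CPM per kb in Vehicle and 57.2 ± 3.25 with Lipase Inh. + Vehicle (SD, n = 3), which overlapped, so the low sum of the latter lay in Pde3b. The make-up changed as well: Pde3b held 65.2% of the sum in Vehicle and 55.9% with ISO, while Pde4d went from 2.63% to 23.7%. After inhibitors Pde4d went likewise from 2.95% to 21.8% with ISO, but the share of Pde3b was 58.9 ± 1.94% with vehicle and 59.4 ± 0.1% with ISO (SD, n = 3), with no such fall. The 4 PDE4 genes together went from a mean of 16.6 ± 1.34 to 113 ± 4.39 CPM per kb (SD, n = 3), and after inhibitors from 15.4 ± 0.653 to 100.3 ± 4.89. These are transcript levels, and enzyme activity was not measured.

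**Figure D4:**
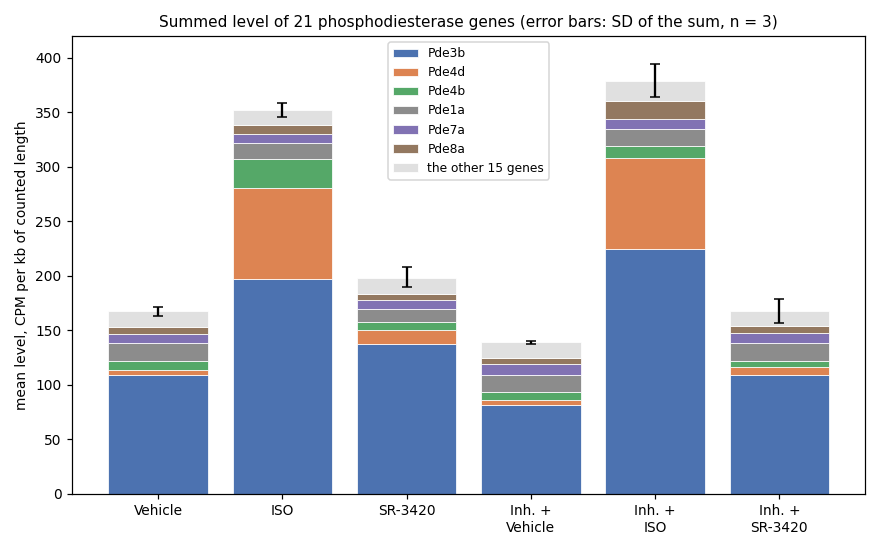
Stacked bars give the mean level per gene in CPM per kb of counted length in the 6 groups, with error bars of 1 SD of the sum over 3 samples. The sum is 167 in Vehicle, 352 with ISO and 379 with ISO after inhibitors, and Pde3b and Pde4d make up most of the rise.

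The DNA around the transcript starts was searched for the cAMP response element, TGACGTCA, and for the shorter TGACG that it contains on each strand, in windows of 300 bases (250 before the start, 50 from it on) at 44 distinct protein-coding starts of the 9 genes in GENCODE on mm9. Over 45982 such starts of all genes, 2.13% held the full element and 23.4% the short one on either strand. Among the 44 starts, 2 held the full element, 1 of Pde7a and 1 of Pde7b, and 10 the short one, at 22.7% near the share of all starts. The counts are per gene, so which of 9 starts of Pde4b, 12 of Pde4d or 9 of Pde10a was in use is not known. The following stretches show the 2 full elements, 1 in a gene that rose with ISO and 1 in a gene that did not, and the short ones before starts of the 2 genes with the highest level per kb with ISO; letters in capitals mark the element, and offsets count from the start.
Pde7b: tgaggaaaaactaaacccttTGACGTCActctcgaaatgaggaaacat
Pde7a: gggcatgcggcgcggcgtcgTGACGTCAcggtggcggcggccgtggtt
Pde3b: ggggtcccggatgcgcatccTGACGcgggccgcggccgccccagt
Pde4d, first: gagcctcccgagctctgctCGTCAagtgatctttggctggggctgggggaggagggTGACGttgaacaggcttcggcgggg
Pde4d, second: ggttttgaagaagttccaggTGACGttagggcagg

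The Pde7b stretch is chr10:20444963-20445010 on the minus strand, and the Pde7a stretch chr3:19211393-19211440 on the minus strand. The Pde3b stretch is chr7:121558602-121558646 on the plus strand. Those of Pde4d are chr13:110050598-110050678 and chr13:110715236-110715270 on the plus strand. The full element begins 106 bases before the start in Pde7b and 98 bases before it in Pde7a, at nearly the same distance, while Pde7b rose 3.08-fold with ISO and Pde7a did not pass. No window of the other 7 genes held the full element, the 12 windows of Pde4d included. A match of letters is a description of these windows and not evidence of binding.

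The 12 other phosphodiesterase genes were followed as well. Pde1c, Pde4c, Pde6a, Pde6c, Pde9a and Pde11a reached the cutoff in 0 libraries and were not tested. Among the 6 tested, 1 rose with ISO (Pde1b) and 1 fell (Pde8b), 1 rose with SR-3420 (Pde1b) and 2 fell (Pde1a and Pde8b), and with ISO after inhibitors 1 fell (Pde2a, -0.27 ± 0.11, adjusted p = 0.0463), a call that DESeq2 did not give. Over all genes 26.8% rose and 25% fell with ISO, and 26% and 25.4% with SR-3420. SR-3420 after inhibitors gave 0 calls in edgeR and in DESeq2, with 2 genes higher at an unadjusted p of 0.05. Pde1b, which calcium and calmodulin activate, went from 5.22 to 11.8 CPM with SR-3420, a log2 change of 1.17 ± 0.16 (adjusted p = 2.32e-06), and to 7.43 CPM with ISO (0.51 ± 0.17, adjusted p = 0.0143). With ISO after inhibitors its log2 change was -0.39 ± 0.19 (adjusted p = 0.0793), and the effect of ISO differed between the settings by -0.89 ± 0.25 (adjusted p = 0.00865). Pde8b, the relative of Pde8a, fell from 5.18 to 2.34 CPM with ISO (-1.14 ± 0.24, adjusted p = 0.000459), opposite to Pde8a. Its response to SR-3420, -0.80 ± 0.23 without inhibitors (adjusted p = 0.00559), differed after them by 1.30 ± 0.32 (adjusted p = 0.0044). The Lipase Inh. + SR-3420 samples of Pde8b read 4.776, 7.995 and 5.725 CPM, with the shallow library highest. The value without that library is not given.

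The genes of PKA, the kinase that reads the cAMP signal, were tested in the same fit. Of 8 tested PKA subunit and inhibitor genes, 4 rose and 0 fell with ISO, where 26.8% and 25% of all genes did, and 3 rose and 2 fell with ISO after inhibitors, where 29.4% and 28.3% did. Prkar1a, the regulatory subunit that holds the kinase inactive until cAMP binds, was the one with a rise of at least 2-fold, from 347 to 701 CPM with ISO (1.02 ± 0.06, adjusted p = 4.08e-12) and from 345 to 929 CPM after inhibitors (1.43 ± 0.06, adjusted p = 1.09e-14). Its response to ISO was larger after inhibitors by 0.41 ± 0.08 (adjusted p = 0.000449). Of the 2 tested genes for cAMP exchange factors and export, Rapgef3 and Abcc4, 0 passed edgeR's test with ISO or SR-3420 alone, 0 did at an unadjusted p of 0.05 and 0 in DESeq2. With ISO after inhibitors 1 of the 2 was lower, where 28.3% of all genes were. After inhibitors and SR-3420, 1 was higher, where 2.99% of all genes were.

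Among 14 tested genes for phosphodiesterase partners and anchors, 3 rose and 2 fell with ISO, and 5 rose and 4 fell with ISO after inhibitors, where 26.8% and 25% of all genes rose and fell with ISO and 29.4% and 28.3% after inhibitors. Akap12 and Akap13, anchors that bind PKA, rose with ISO by 1.05 ± 0.07 and 1.41 ± 0.07 (adjusted p = 3.91e-11 and 7.61e-13), and Akap12 rose with SR-3420 by 1.37 ± 0.07 (adjusted p = 8.71e-13). The response of Akap12 to ISO was smaller after inhibitors by a difference of -1.44 ± 0.10 (adjusted p = 2.67e-10), and that to SR-3420 by -1.26 ± 0.10 (adjusted p = 9.42e-09). Pde4dip, myomegalin, which binds PDE4D, went from 66.9 to 17.4 CPM and Akap7 from 61.2 to 15.1 CPM with ISO after inhibitors (-1.93 ± 0.09 and -2.02 ± 0.10, adjusted p = 9.75e-14 and 4.82e-13). Both fell less with ISO alone, with differences of -1.25 ± 0.12 and -1.49 ± 0.14 between the settings (adjusted p = 7.58e-08 and 4.52e-08). Abhd15, the partner that stabilises PDE3B in fat cells, is named after its values were seen. It read 209 and 212 CPM with vehicle and ISO, and 214 and 410 CPM after inhibitors. In edgeR the difference in response was 0.92 ± 0.10 (adjusted p = 3.75e-07), while ISO alone gave 0.02 ± 0.07 (adjusted p = 0.851). Among the 14 genes, 2 had a larger and 5 a smaller effect of ISO after inhibitors, where 14.9% and 16.6% of all genes did.

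Genes known to be induced by cAMP, taken as a reference, also fell on both sides. All 7 (Crem, Nr4a1, Nr4a2, Nr4a3, Sik1, Fos and Ppargc1a) rose with ISO and 5 rose with SR-3420, where 26.8% and 26% of all genes did. They were listed as genes that cAMP induces, with earlier results known, so their rise with ISO is no test. Their response to ISO was smaller after inhibitors for 4, Nr4a1 (-2.56 ± 0.15), Ppargc1a (-1.99 ± 0.12), Fos (-1.68 ± 0.44) and Sik1 (-1.58 ± 0.18), at adjusted p of 5.05e-11, 3.62e-11, 0.00602 and 4.56e-07. It was larger for 1, Crem, which encodes the inducible cAMP repressor ICER, by 0.88 ± 0.15 (adjusted p = 0.000106). Of all genes, 16.6% had a smaller and 14.9% a larger effect of ISO after inhibitors. The inhibitor difference of Pde4b had the sign of those of Nr4a1 and Ppargc1a, and the differences of Pde8a, Pde4a and Pde3b had the sign of that of Crem. Since the reference genes hold both signs, any called member had to share the sign of some of them, so this is no test.

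The genes whose log2 CPM was most like that of each member with a change of at least 2-fold were found over the 18 samples, among genes with a mean log2 CPM of at least 3. The samples share 6 groups, so a high Pearson r mostly reflects a like order of group means, and it is given as a description. Pde4d was most like Mospd1 (0.99), Ncoa4 (0.989) and Bzw1 (0.989), and Pde3b like Ffar4 (0.988), Ncoa4 (0.978) and Clstn3 (0.976). Pde4b was most like Tmem97 (0.963), Pdp2 (0.94) and Fosl2 (0.932). Pde8a was most like 1190002N15Rik (0.984), Emb (0.982) and Medag (0.979), and Pde10a like Alpl (0.954). The values for Pde7b were lower, with Dnajb6 (0.912), Psma3 (0.898) and Atp6v1b2 (0.886).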

How the data were processed

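The authors mapped the reads to mm9 with STAR 2.4.2a, made tags with HOMER, keeping 1 read per position and length, and ran iRNA-seq for gene counts; these raw counts, not normalized, were deposited with the counted length of each gene. Strand use in counting was not given in the sources used here. The table had 0 columns of other samples and no comparisons by the authors. Genes passing filterByExpr in edgeR 4.0.16 (R 4.3.3) were fitted with TMM factors, group means over all 18 samples and the quasi-likelihood test, with Benjamini-Hochberg adjustment over all 12156 genes. The SE is the log2 fold change divided by the square root of the F statistic. DESeq2 1.42.0, RLE factors, total counts alone, 2 other filters, a fit of only the groups compared, a replicate block and leaving out each sample were the alternatives. The fits were tested on simulated data. By rule, all 9 members were named, and genes from lists of the pathway where called and changed at least 2-fold in a comparison. Pde1a, Pde2a, Rapgef3, Abcc4, Abhd15 and the untested genes fall outside that rule and were named after their values were seen. The members and lists were chosen with earlier results of these data known. Promoter windows came from the mm9 genome and GENCODE vM1, read in Python 3.11.15. Total counts of 4263755 to 21205032 per library set the precision, and genes with few counts are measured least precisely.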

Additional observations from a re-analysis of the deposited data

Results flagged for a closer look

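For 5 genes the effect of a stimulus differed between cells with and without lipase inhibitors in a test of the difference itself, the log2 effect with inhibitors minus that without. For ISO the difference was 1.13 for Pde8a (adjusted p = 9.09e-06), 0.99 for Pde4a (adjusted p = 2.31e-05), 0.61 for Pde3b (adjusted p = 9.6e-06) and -1.04 for Pde4b (adjusted p = 2.86e-06), by edgeR's quasi-likelihood test. For SR-3420 it was -0.76 for Pde4d (adjusted p = 0.000279). Leaving out single samples moved these differences between 0.98 and 1.22 for Pde8a, between 0.91 and 1.08 for Pde4a, between 0.59 and 0.64 for Pde3b, between -1.11 and -0.97 for Pde4b and between -0.88 and -0.67 for Pde4d. All 5 passed in every one of these fits.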

How the results depend on the processing

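The number of the 9 genes called stayed within 1.5 times its value in all 116 combinations of comparison and alternative, and no called gene turned its direction. That number does not show which genes were called. With total counts alone, ISO lost the call of Pde8a and gained Pde7a as lower. With the same scaling SR-3420 lost Pde3b and gained Pde4a and Pde4b as lower. For single genes, 999 of 1030 values kept their side of the threshold, 18 lost a call and 13 gained one. Over all genes, the calls for inhibitors alone went from 111 to 207 with DESeq2, 69 with total counts alone, 47 with only the groups compared and 269 with the replicate block, and those for SR-3420 after inhibitors from 528 to 344, 345 and 852 with the last 3; the cause was not tested. With the replicate block, ISO called 8 of the 9 genes in place of 7 (Pde7a, -0.21, adjusted p = 0.0185) and the inhibitor difference for ISO 5 in place of 4 (Pde10a, 1.37, adjusted p = 0.038). The replicate numbers were not taken to pair samples, since no label ties equal numbers to 1 experiment. The library names do run in sequence within each number, with 1 sample of each of the 6 groups. The paper also describes the RNA-seq as coming from independent experiments. Deviations of same-numbered samples correlated with a mean of -0.0118, 0.15 and 0.19 for numbers 1, 2 and 3 and of -0.0548 for different numbers. Of 45 same-numbered pairs, 28 were over 0.1, and 12 of 18 samples correlated best with their own number. Each of these means lay above that of different numbers, so a pairing may exist that the main fit left out. With at most 18 counts per library, as for Pde3a, small changes could not be seen.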
